A study of Vitis vinifera with 27 samples.

Results

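Flavonols are made from dihydroflavonols by flavonol synthase (FLS), a 2-oxoglutarate-dependent dioxygenase that competes with dihydroflavonol reductase (DFR) for the same substrates. In grapevine the R2R3-MYB factor VviMYBF1 (also named VviMYB12) is known as an activator of FLS transcription, and flavonols are known as UV-absorbing compounds that accumulate in sun-exposed berry skin. O-methyltransferases then convert quercetin and myricetin type flavonols into methylated ones. Described here are 10 genes of this branch of the 28940 genes in the deposited table, taken by their identifiers: 7 genes assigned to FLS by KEGG orthology, VviMYBF1, and 2 genes assigned to flavonol 3-O-methyltransferase.

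The tissue was deseeded Cabernet Sauvignon berries of the 2012 season. In the LR-V vines the basal leaves of the shoots with clusters were removed at véraison, in the LM-V vines those leaves were moved aside at véraison and left on the plant, and the C vines were not treated. Berries were taken at E-L 36 (mid-ripening), E-L 37 (not quite ripe) and E-L 38 (ripe), with 3 biological replicates (A, B and C) of 15 vines each, which gives 9 groups and 27 libraries. The same 9 C libraries also stand in an earlier series of these authors, so being in that earlier record and being a C library cannot be told apart in any comparison with C. Comparisons of LR-V with LM-V and of stages within a treatment do not have this limit. RNA came from whole deseeded berries, so fewer cells of a type and less RNA per cell cannot be told apart.

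Values are FPKM (fragments per kilobase of transcript, scaled to the mapped reads of the library), which allow levels to be compared between genes. They sum to between 600395 and 690035 per library, and depth in reads is not known. Fold changes are differences of log2(FPKM + 1) from a limma model of 9 group means, which understates changes of low genes, and a gene was called at a Benjamini-Hochberg adjusted p under 0.05 over all 19761 tested genes. Of the 10 members, 6 passed the filter of FPKM 1 or more in at least 3 libraries. VviMYBF1, VviFLS1, VviFLS2 and VIT_208s0007g00750 did not, so no count below covers them. The defining markers of coloured berry skin were present in all libraries: UFGT (VIT_216s0039g02230) lay between 26.83 and 86.91 FPKM and VviMYBA1 (VIT_202s0033g00410) between 3.31 and 22.34 FPKM. Of the pair of seed storage transcripts used as markers of seed carry-over, the 2S albumin-like VIT_219s0177g00090 and the vicilin-like VIT_206s0004g03260, the summed level ranged from 0.26 to 63.14 FPKM in LR-V libraries, from 0 to 17.54 FPKM in LM-V libraries and from 0 to 6.03 FPKM in C libraries.

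The array on chromosome 18 holds 4 FLS genes: VviFLS4 (VIT_218s0001g03470), VviFLS3 (VIT_218s0001g03430), VviFLS1 (VIT_218s0001g03490) and VviFLS2 (VIT_218s0001g03510). Names differ between sources, since RefSeq (assembly ASM3070453v1) gives the symbol FLS1 to the gene called VviFLS4 here. The forward primers that the study used for 3 of these copies lie in a matching stretch and show how the copies differ, which bears on how 50-base reads were assigned to them. Capitals mark the 6 of 20 positions that are not the same in all 3 sequences, counted in the primers as written 5′ to 3′.
VviFLS4: aaAccAcctAcTtacagAgC
VviFLS1: aaTccTcctTcTtacagGgA
VviFLS2: aaCccAcctTcGtacagGgC
The VviFLS4 primer differs from that of VviFLS1 at 5 positions and from that of VviFLS2 at 4, and the VviFLS1 and VviFLS2 primers differ at 4. By the paper's methods the aligner was allowed at most 2 mismatches per read. Under that limit a read identical to one of these sequences over the whole stretch could not be placed on the wrong one of these 3 copies. VviFLS3 is not among these 3, so the primers cannot show how reads were split between it and VviFLS4. Other stretches of the genes were not compared.

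VviFLS4, a synthase that oxidises dihydroflavonols to flavonols, was higher than in C in LR-V berries at E-L 36 and in both treatments at E-L 38, and no difference passed the test at E-L 37. At E-L 36 it had 4.74, 6.24 and 5.49 FPKM in LR-V berries, against 1.26, 1.78 and 2.01 FPKM in C berries. The LM-V berries had 6.04, 4.49 and 3.82 FPKM at that stage. All 6 exposed libraries were above all 3 C libraries. At E-L 37 the levels were 5.10, 8.41 and 4.56 FPKM in LR-V berries, 3.46, 3.09 and 7.24 FPKM in LM-V berries and 7.53, 8.05 and 4.06 FPKM in C berries, and the 3 groups overlapped. At E-L 38 they were 18.63, 16.56 and 10.85 FPKM in LR-V berries and 14.49, 10.49 and 8.68 FPKM in LM-V berries, against 1.41, 1.12 and 2.46 FPKM in C berries. The lowest exposed library of that stage was thus still above the highest C library, and these are the highest VviFLS4 levels of the series.

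On the log2(FPKM + 1) scale the difference of LR-V from C was 1.28 ± 0.28 (SE, 3 against 3 libraries, adjusted p = 0.0093, limma) at E-L 36. It was -0.10 ± 0.28 (adjusted p = 0.889) at E-L 37, whereas E-L 38 gave 2.62 ± 0.28 (adjusted p = 2.01e-06). For LM-V against C it was 1.10 ± 0.28 at E-L 36, which missed the threshold (adjusted p = 0.217), -0.46 ± 0.28 (adjusted p = 0.537) at E-L 37 and 2.2 ± 0.28 (adjusted p = 3.18e-05) at E-L 38. The E-L 36 call of LR-V was lost without LR-V replicate B (adjusted p = 0.0508) and in no other alternative that was run, over which the adjusted p ranged from 0.0064 to 0.0508. Both E-L 38 calls were kept in every alternative that was run (adjusted p up to 0.0032 for LR-V and 0.0048 for LM-V). Both treatments were set against the same C libraries. Of all tested genes, 5.54% were called for LR-V against C at E-L 36, with 5.01% and 17.8% at the next stages. For LM-V against C these shares were 0.0708%, 0.572% and 9.5%.

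**Figure D1:**
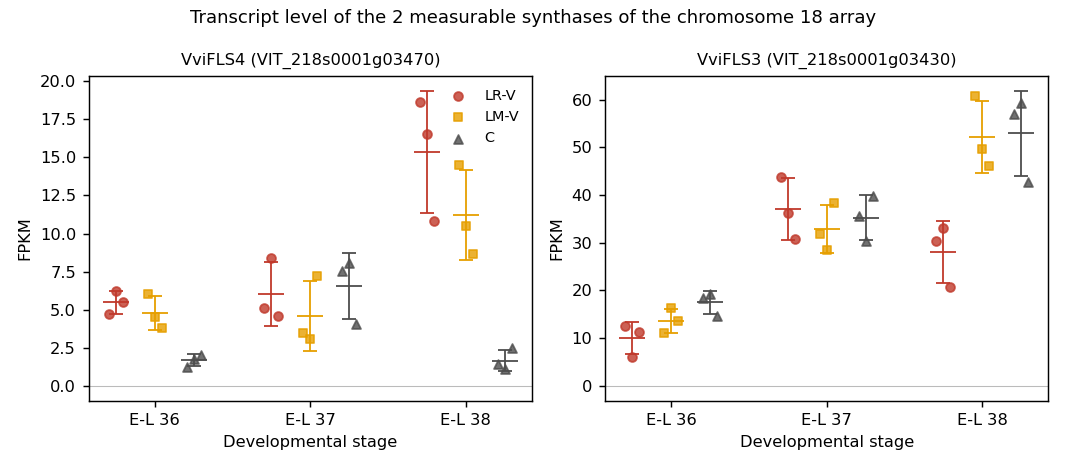
FPKM of VviFLS4 (left) and VviFLS3 (right) in each library at E-L 36, 37 and 38. Points are libraries of LR-V (circles), LM-V (squares) and C (triangles), with the mean and SD of 3 libraries. At E-L 38 VviFLS4 lies between 8.68 and 18.63 FPKM in the 6 exposed libraries and between 1.12 and 2.46 FPKM in C, while VviFLS3 is lower in LR-V than in LM-V and C.

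How VviFLS4 changed with ripening also differed. In C berries it rose by 1.46 ± 0.28 on the log2 scale at E-L 37 against E-L 36 (adjusted p = 0.00035) and fell by 1.49 ± 0.28 at E-L 38 against E-L 37 (adjusted p = 0.00041), so that its highest control level was at E-L 37. In LR-V berries the step of E-L 37 against E-L 36 was 0.08 ± 0.28 (adjusted p = 0.861) and that of E-L 38 against E-L 37 was 1.23 ± 0.28 (adjusted p = 0.0021). In LM-V berries these steps were -0.10 ± 0.28 (adjusted p = 0.828) and 1.17 ± 0.28 (adjusted p = 0.0022). This difference was tested as an interaction, which sets the effect of a treatment at E-L 37 against its average effect at the other 2 stages. It was -2.04 ± 0.35 on the log2 scale for LR-V (adjusted p = 0.0020) and -2.11 ± 0.35 for LM-V (adjusted p = 0.0044). Of all genes, 4.88% were called in the LR-V test and 0.633% in the LM-V test. Both VviFLS4 calls were kept in every alternative that was run. The LR-V effect was larger at E-L 38 than at E-L 36 by 1.34 ± 0.40 (adjusted p = 0.040, with 8.35% of all genes called). That call was lost without any one of 9 of the 12 libraries concerned, namely all 3 LR-V replicates and C replicates B and C of E-L 36, and LR-V replicates A and B and C replicates A and B of E-L 38 (adjusted p up to 0.109). It was also lost with a pseudocount of 0.1 (adjusted p = 0.059), with no filter on low values (adjusted p = 0.057) and with a block on the replicate letter (adjusted p = 0.053). For LM-V this difference was 1.10 ± 0.40 (adjusted p = 0.156, with 3.1% of all genes called).

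Between LR-V and LM-V no difference in VviFLS4 passed the test at any stage. The log2 difference of LR-V from LM-V was 0.18 (95% interval -0.41 to 0.77, adjusted p = 0.859) at E-L 36, 0.36 (-0.23 to 0.95, adjusted p = 0.829) at E-L 37 and 0.42 (-0.17 to 1.00, adjusted p = 0.41) at E-L 38, so a difference of up to about 1 on the log2 scale is within the interval. Ordered by mean, VviFLS4 was at 15.3 ± 4.03 FPKM in LR-V at E-L 38, 11.2 ± 2.97 in LM-V at E-L 38, 6.55 ± 2.17 in C at E-L 37, 6.02 ± 2.08 in LR-V at E-L 37, 5.49 ± 0.75 in LR-V at E-L 36, 4.78 ± 1.14 in LM-V at E-L 36, 4.60 ± 2.30 in LM-V at E-L 37, 1.68 ± 0.38 in C at E-L 36 and 1.66 ± 0.71 in C at E-L 38 (SD, n = 3 each). Neighbours in this order overlapped, except LM-V at E-L 38 and C at E-L 37, and LM-V at E-L 37 and C at E-L 36.

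VviFLS3 took a different course from VviFLS4: it was lower in LR-V than in C at E-L 36 and E-L 38. At E-L 36 it had 12.62, 6.11 and 11.37 FPKM in LR-V berries and 11.16, 16.23 and 13.50 FPKM in LM-V berries, against 18.51, 19.34 and 14.72 FPKM in C berries. At E-L 37 the groups overlapped, at 43.80, 36.35 and 30.87 FPKM in LR-V, 31.92, 28.41 and 38.37 FPKM in LM-V and 35.68, 30.32 and 39.88 FPKM in C. At E-L 38 it had 30.32, 33.08 and 20.77 FPKM in LR-V berries and 60.76, 49.65 and 46.20 FPKM in LM-V berries, against 56.95, 59.24 and 42.80 FPKM in C berries. The 3 LR-V libraries of E-L 38 were below all libraries of the other groups of that stage.

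VviFLS3 fell by 0.79 ± 0.22 on the log2 scale in LR-V against C at E-L 36 (adjusted p = 0.032) and by 0.91 ± 0.22 at E-L 38 (adjusted p = 0.0054), with 0.06 ± 0.22 (adjusted p = 0.911) at E-L 37. It also fell by 0.89 ± 0.22 in LR-V against LM-V at E-L 38 (adjusted p = 0.015, with 7.45% of all genes called). LM-V against C gave -0.35 ± 0.22, -0.10 ± 0.22 and -0.02 ± 0.22 at E-L 36, 37 and 38 (adjusted p = 0.859, 0.894 and 0.986). The E-L 36 call was lost without C replicate A, without C replicate B and without LR-V replicate B, where the difference shrank to -0.50 (adjusted p = 0.193). It was also lost with the seed transcripts as a covariate (adjusted p = 0.067) and in a fit of these 2 groups alone (adjusted p = 0.143). The summed seed transcripts at E-L 36 were at 0.26 to 33.18 FPKM in LR-V and 0 to 6.03 FPKM in C, and whether they play a part beyond this covariate was not tested. At E-L 38, leaving out LR-V replicate C ended the call against C (adjusted p = 0.0514) and the call against LM-V (adjusted p = 0.126). The call against LM-V was also lost without LM-V replicate A (adjusted p = 0.080) and in a fit of these 2 groups alone (adjusted p = 0.094). The study's rule of at least 2-fold with a probability of at least 0.8, as rebuilt here, picked VviFLS3 in none of these comparisons. Its log2 ratios there were -0.80 and -0.92 for LR-V against C at E-L 36 and E-L 38, and -0.90 against LM-V. With ripening VviFLS3 rose at E-L 37 against E-L 36 in every treatment, by 1.82 ± 0.22 in LR-V (adjusted p = 1.84e-06), 1.22 ± 0.22 in LM-V (adjusted p = 0.00027) and 0.97 ± 0.22 in C (adjusted p = 0.0012). At E-L 38 against E-L 37 it rose by 0.65 ± 0.22 in LM-V (adjusted p = 0.02), a call lost without LM-V replicate A or B at E-L 37 or LM-V replicate A at E-L 38, while C gave 0.57 ± 0.22 (adjusted p = 0.053, called with median-of-ratios scaling) and LR-V -0.40 ± 0.22 (adjusted p = 0.171). The fold and probability rule did not pick that LM-V step (log2 ratio 0.67, probability 0.795).

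The make-up of the array's transcripts thus differed between treatments. VviFLS4 made up 33.4 to 37.9% of the summed FPKM of the 4 array genes in LR-V berries at E-L 38 and 15.8 to 19.3% in LM-V berries, against 1.85 to 5.44% in C berries. At E-L 36 the shares were 27.2 to 50.5% in LR-V, 21.6 to 35.0% in LM-V and 6.35 to 12.01% in C, and at E-L 37 they were 10.4 to 18.7% in LR-V, 9.78 to 15.9% in LM-V and 9.24 to 21.0% in C. The sum itself was 43.5 ± 10.2 FPKM in LR-V, 63.4 ± 10.6 FPKM in LM-V and 54.7 ± 8.23 FPKM in C at E-L 38 (SD, n = 3 each). These shares are a description of the values already tested above, and how reads were split between VviFLS4 and VviFLS3 was not checked.

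The remaining array genes were near 0. VviFLS1 was listed at 0 in 26 of 27 libraries, and the single value above 0 was 0.19 FPKM, from E-L 36 (LM-V replicate C). VviFLS2 was listed at 0 in 16 libraries and reached at most 0.27 FPKM, from E-L 38 (LR-V replicate A). Its values above 0 began at 0.08 FPKM, which occurred in 7 libraries, so they move in steps and may rest on very few reads. An exact permutation test of VviFLS2 (libraries permuted within a stage, difference averaged over the 3 stages, two-sided) gave p = 0.167 for LR-V against C, p = 0.65 for LM-V against C and p = 0.088 for LR-V against LM-V. VviFLS1 was not tested.

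VviMYBF1 (VIT_207s0005g01210; RefSeq symbol MYB12, synonym mybF1), the activator, was low in all libraries, with a highest value of 1.10 FPKM, and was highest in LR-V. At E-L 36 it had 1.07, 0.94 and 1.10 FPKM in LR-V berries and 0.71, 0.63 and 0.54 FPKM in LM-V berries, against 0.21 FPKM in each of the 3 C libraries. The 3 groups did not overlap at that stage and stood in the order LR-V, LM-V, C. At E-L 37 it had 0.31, 0.21 and 0.31 FPKM in LR-V, 0.11, 0 and 0.11 FPKM in LM-V and 0.21, 0.34 and 0 FPKM in C, where LR-V and C overlapped. At E-L 38 it had 0.45, 0.96 and 0.22 FPKM in LR-V and 0.11, 0.11 and 0.34 FPKM in LM-V, and it was listed at 0 in all 3 C libraries. The smallest value above 0 was 0.11 FPKM and was found in 4 libraries, so single values may rest on few reads.

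Because VviMYBF1 (VIT_207s0005g01210) failed the filter, it was compared by the exact permutation test over the 3 stages, chosen after its values were seen. Its 3 comparisons are among 9 such tests, with unadjusted p values. In an exact permutation test a single stage with 3 against 3 libraries cannot go below p = 0.10, and the smallest p over 3 stages is 0.00025. The log2 difference of LR-V from C averaged 0.49 over the stages (p = 0.00175, exact permutation), made up of 0.75, 0.12 and 0.60 at E-L 36, 37 and 38. LM-V against C averaged 0.18 (p = 0.041, exact permutation), with 0.43, -0.13 and 0.24 at the 3 stages, and with a pseudocount of 0.1 its p was 0.0693. LR-V against LM-V averaged 0.31 (p = 0.001, exact permutation), with 0.32, 0.25 and 0.36. In the limma fit of all 27473 genes above 0 in any library, VviMYBF1 was called for LR-V against C at E-L 36 (adjusted p = 0.0025) and at E-L 38 (adjusted p = 0.0047), and for LM-V against C at neither (adjusted p = 0.458 and 0.352). In that fit LR-V against LM-V was called at no stage (adjusted p = 0.389, 0.783 and 0.131). In the same fit it fell at E-L 37 against E-L 36 by 0.67 in LR-V (adjusted p = 0.0008) and by 0.60 in LM-V (adjusted p = 0.0029), while C gave -0.04 (adjusted p = 0.921).

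**Figure D2:**
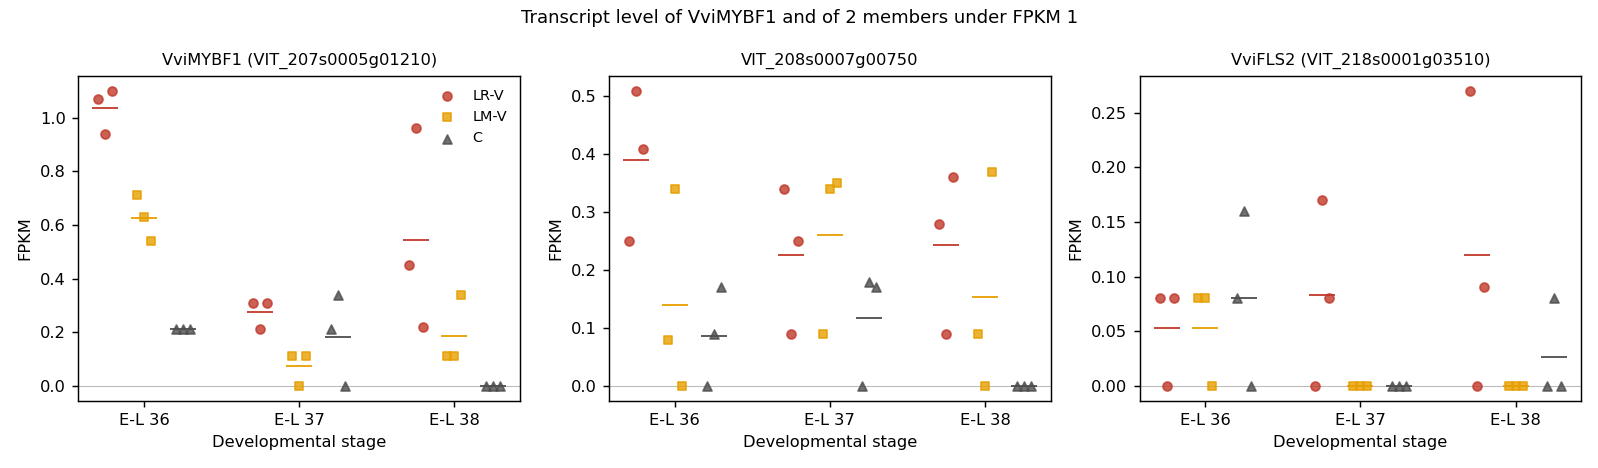
FPKM of VviMYBF1 (left), VIT_208s0007g00750 (middle) and VviFLS2 (right) in each library by stage, with a bar at the mean of 3 libraries. Points are LR-V (circles), LM-V (squares) and C (triangles), and the y axes differ between panels. VviMYBF1 separates the 3 groups at E-L 36 and is listed at 0 in all C libraries at E-L 38.

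Over all 27 libraries no relation of VviMYBF1 with VviFLS4 passed the test. The permutations shuffled all 27 libraries without regard to stage, treatment or group. Replicates thus counted as separate points, and the p values here also reflect differences between groups. Pearson's r with VviFLS4 was 0.35 (permutation p = 0.0766, adjusted over 9 relations 0.172) and Spearman's rho 0.41 (permutation p = 0.034, adjusted 0.102). Without the 2 libraries farthest from the VviMYBF1 median, LR-V replicates A and C at E-L 36, r was 0.43. The relation was higher within stages, with r = 0.91 at E-L 36, r = 0.56 at E-L 37 and r = 0.72 at E-L 38 over 9 libraries each, which also differ in treatment. The deviations from the group means had r = 0.30. With VviFLS3 the relation was negative, with r = -0.72 (permutation p = 5e-05, adjusted 0.00045) and rho = -0.67 (permutation p = 0.00019, adjusted 0.0017), and -0.65 without the 2 farthest libraries. Within stages r was -0.70 (E-L 36), 0.05 (E-L 37) and -0.53 (E-L 38), and the deviations from group means had r = 0.20, so the negative relation did not hold within E-L 37 or within groups. Of the other 7 members none had an adjusted p under 0.05 for r or rho. The highest of them in r was VIT_208s0007g00750, at 0.41 (permutation p = 0.0336, adjusted 0.145).

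The remaining 3 genes assigned to FLS lie outside the array. VIT_208s0007g00750, on chromosome 8, was also low, with 7 libraries at 0 and a highest value of 0.51 FPKM. At E-L 36 it had 0.25, 0.51 and 0.41 FPKM in LR-V, 0.08, 0.34 and 0 FPKM in LM-V and 0, 0.09 and 0.17 FPKM in C. At E-L 38 it had 0.28, 0.09 and 0.36 FPKM in LR-V and 0.09, 0 and 0.37 FPKM in LM-V, and it was listed at 0 in all 3 C libraries. LR-V was thus above C without overlap at these stages, while at E-L 37 the groups overlapped, at 0.34, 0.09 and 0.25 FPKM in LR-V, 0.09, 0.34 and 0.35 FPKM in LM-V and 0, 0.18 and 0.17 FPKM in C. The log2 difference of LR-V from C averaged 0.27 over the 3 stages (p = 0.0015, exact permutation), that of LM-V from C 0.14 (p = 0.0795, exact permutation) and that of LR-V from LM-V 0.12 (p = 0.182, exact permutation). These p values are unadjusted and belong to the same 9 tests.

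VIT_208s0105g00380 had the highest mean level of all members in every treatment at E-L 36 and E-L 37 and in LR-V at E-L 38, while in LM-V and C at E-L 38 VviFLS3 was higher. Its name is uncertain. Its best orthology is FLS, but its closest protein is SRG1-like and its function term in the table is leucocyanidin oxygenase, so its substrate is not settled by the annotation. At E-L 36 it had 102.66, 87.79 and 87.09 FPKM in LR-V and 116.11, 91.93 and 109.55 FPKM in LM-V, against 132.15, 150.35 and 173.56 FPKM in C. At E-L 38 it had 31.29, 37.52 and 37.67 FPKM in LR-V and 37.62, 27.55 and 28.87 FPKM in LM-V, against 21.81, 17.83 and 31.69 FPKM in C. The exposed berries were thus below C at the first stage, while at the last stage they were higher on average and overlapped with C. At E-L 37 it had 63.83, 61.64 and 64.61 FPKM in LR-V, 59.62, 78.47 and 59.05 FPKM in LM-V and 41.86, 54.64 and 61.33 FPKM in C.

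In LR-V against C it fell by 0.71 ± 0.17 at E-L 36 (adjusted p = 0.017) and rose by 0.59 ± 0.17 at E-L 38 (adjusted p = 0.02), with 0.28 ± 0.17 (adjusted p = 0.365) at E-L 37. The E-L 36 call was lost without C replicate B, C replicate C or LR-V replicate B (adjusted p up to 0.0975). The E-L 38 call was lost without C replicate A or B or LR-V replicate B or C (adjusted p up to 0.137), with the seed covariate (adjusted p = 0.061) and in a fit of the 2 groups alone (adjusted p = 0.0965). The fold and probability rule picked the gene at neither stage (log2 ratio -0.72 at E-L 36 and 0.58 at E-L 38). LM-V against C gave -0.52 ± 0.17 (adjusted p = 0.453), 0.32 ± 0.17 (adjusted p = 0.464) and 0.41 ± 0.17 (adjusted p = 0.145), the last of them called without C replicate C at E-L 38 (adjusted p = 0.022). The turn itself was tested: the LR-V effect was higher at E-L 38 than at E-L 36 by 1.30 ± 0.24 (adjusted p = 0.0016), a call kept in every alternative that was run. The LM-V effect was higher by 0.93 ± 0.24 (adjusted p = 0.038). That call was lost without any one of 8 of the 12 libraries concerned, namely replicates B and C of LM-V and of C from E-L 36, and LM-V replicates A and C and C replicates A and B from E-L 38 (adjusted p up to 0.115). It fell with ripening in every treatment. At E-L 37 against E-L 36 the log2 changes were -0.54 in LR-V, -0.69 in LM-V and -1.52 in C, and at E-L 38 against E-L 37 they were -0.82 in LR-V, -1.04 in LM-V and -1.13 in C (adjusted p from 8.8e-07 to 0.02). Among these, the LR-V call at E-L 37 was lost without LR-V replicate A at E-L 36 or B at E-L 37. The fold and probability rule picked both steps in C, only that of E-L 38 against E-L 37 in LM-V and none in LR-V. In the summed FPKM of the 7 FLS members this gene made up 82.3 to 85.8% in LR-V, 80.7 to 86.5% in LM-V and 86.9 to 90.7% in C at E-L 36, and at E-L 38 it made up 37.4 to 51.7% in LR-V, 30.6 to 34.0% in LM-V and 22.1 to 40.4% in C.

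VIT_202s0012g00450, on chromosome 2, has FLS activity as its function term. At E-L 36 it had 4.12, 1.62 and 1.39 FPKM in LR-V and 0.78, 0.81 and 0.84 FPKM in LM-V, against 0, 0.65 and 0.96 FPKM in C. At E-L 37 it had 2.43, 2.46 and 1.45 FPKM in LR-V and 2.18, 1.96 and 3.28 FPKM in LM-V, against 4.05, 4.85 and 3.38 FPKM in C. At E-L 38 it had 2.80, 1.64 and 3.10 FPKM in LR-V and 1.55, 2.30 and 0.87 FPKM in LM-V, against 3.58, 2.59 and 1.56 FPKM in C. The LR-V libraries were thus all above C at E-L 36, all below C at E-L 37 and overlapped with C at E-L 38. The LM-V libraries were also all below C at E-L 37, and overlapped with C at the other stages.

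For LR-V against C the log2 differences were 1.10 ± 0.30 (adjusted p = 0.029), -0.72 ± 0.30 (adjusted p = 0.163) and -0.01 ± 0.30 (adjusted p = 0.994) at E-L 36, 37 and 38. For LM-V they were 0.29 ± 0.30, -0.56 ± 0.30 and -0.47 ± 0.30 (adjusted p = 0.959, 0.453 and 0.358). The E-L 36 call was lost without C replicate A or B, without LR-V replicate A (0.76, adjusted p = 0.186), with the seed covariate (adjusted p = 0.069) and in a fit of the 2 groups alone (adjusted p = 0.173). The fold and probability rule did not pick it either (log2 ratio 1.757, probability 0.622). LR-V replicate A holds both the highest value of this gene at that stage and the highest summed seed transcripts of that stage, 33.18 FPKM, and the part of seed carry-over was not tested beyond this. The LR-V effect at E-L 37 was below the mean of the other stages by 1.26 ± 0.36 (log2 difference -1.26, adjusted p = 0.045). For VviFLS3 the same contrast was 0.91 ± 0.26 (adjusted p = 0.049). The 2 calls were lost without any one of 12 and 13 of the 18 libraries concerned, with adjusted p up to 0.148 and 0.16. They were also lost with a replicate block (adjusted p = 0.057 for VIT_202s0012g00450 and 0.053 for VviFLS3, VIT_218s0001g03430), a pseudocount of 0.1 (0.101 and 0.055), no filter on low values (0.062 and 0.066) and a fit of the compared groups alone (0.078 and 0.081), and the first also with median-of-ratios scaling (0.061). In C berries VIT_202s0012g00450 rose by 1.77 ± 0.30 at E-L 37 against E-L 36 (adjusted p = 7.09e-05). In LM-V berries it rose by 0.92 ± 0.30 (adjusted p = 0.023, lost with a pseudocount of 0.1 and without any one of LM-V replicates A, B and C at E-L 36 and C at E-L 37), while LR-V gave -0.05 ± 0.30 (adjusted p = 0.928). The fold and probability rule did not pick the LM-V step (probability 0.592).

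**Figure D3:**
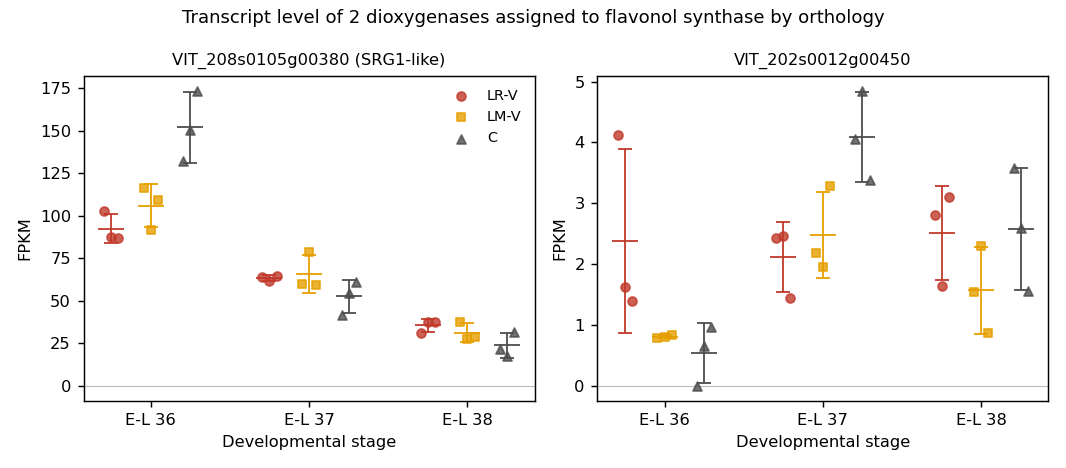
FPKM of VIT_208s0105g00380 (left) and VIT_202s0012g00450 (right) in each library by stage. Points are libraries of LR-V (circles), LM-V (squares) and C (triangles), with the mean and SD of 3 libraries. The left gene falls with ripening in every treatment, and the right gene is highest in C berries at E-L 37, between 3.38 and 4.85 FPKM.

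The 2 methyltransferase genes, VIT_215s0048g02480 and its neighbour VIT_215s0048g02490, lie next to each other by identifier, and both have the same closest protein, quercetin 3-O-methyltransferase 1 of grapevine, and match a single RefSeq gene. How reads were split between them is therefore uncertain, and they are given singly and as a sum. Their main difference was at E-L 38, where both were near 0 in C berries. VIT_215s0048g02480 had 1.93, 2.19 and 5.81 FPKM in LR-V and 23.07, 9.20 and 9.20 FPKM in LM-V, against 0.19, 0.27 and 0.15 FPKM in C. VIT_215s0048g02490 had 1.05, 4.30 and 4.74 FPKM in LR-V and 18.29, 4.16 and 5.78 FPKM in LM-V, against 0.88, 0 and 0 FPKM in C. For both genes all exposed libraries were above all C libraries.

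At E-L 38 the log2 difference of LR-V from C was 1.73 ± 0.39 for VIT_215s0048g02480 (adjusted p = 0.0033) and 1.68 ± 0.53 for VIT_215s0048g02490 (adjusted p = 0.031), the second of them lost without C replicate B or C or LR-V replicate B or C (adjusted p up to 0.145) and in a fit of the 2 groups alone (adjusted p = 0.057). For LM-V against C it was 3.50 ± 0.39 (adjusted p = 4.92e-06) and 2.83 ± 0.53 (adjusted p = 0.0015). Against LM-V, LR-V was lower by 1.77 ± 0.39 for VIT_215s0048g02480 (log2 difference -1.77, adjusted p = 0.0074), lost without LM-V replicate A (-1.35, adjusted p = 0.062) and in a fit of the 2 groups alone (adjusted p = 0.111), and -1.15 ± 0.53 for VIT_215s0048g02490 (adjusted p = 0.198). With both copies summed before the fit, the log2 difference was 2.28 ± 0.45 for LR-V against C (adjusted p = 0.0011), 3.88 ± 0.45 for LM-V against C (adjusted p = 9.59e-06) and -1.61 ± 0.45 for LR-V against LM-V (adjusted p = 0.031). The summed seed transcripts at this stage were at 2.94 to 55.05 FPKM in LR-V, 2.84 to 3.97 FPKM in LM-V and 1.46 to 3.21 FPKM in C. With these transcripts as a covariate the adjusted p against C was 0.0035 for VIT_215s0048g02480 and 0.049 for VIT_215s0048g02490 in LR-V, and 4.81e-06 and 0.0018 in LM-V. UFGT in the berries of that stage was at 28.08 to 32.29 FPKM in LR-V and 26.83 to 34.85 FPKM in LM-V, against 56.16 to 64.71 FPKM in C. The other skin marker, VviMYBA1, overlapped, at 5.68 to 8.31 FPKM in LR-V, 4.2 to 7.35 FPKM in LM-V and 3.31 to 7.23 FPKM in C. The part of these markers in the results was not tested. With a pseudocount of 0.1 the log2 differences from C were larger, at 3.33 for VIT_215s0048g02480 and 3.76 for VIT_215s0048g02490 in LR-V and at 5.4 and 5.17 in LM-V. The study's rule of at least 2-fold with a probability of at least 0.8, as rebuilt here, picked neither gene for LR-V against C at this stage (probability 0.786 and 0.75), while it picked both for LM-V against C and both for LR-V against LM-V, with a probability of 0.844 for VIT_215s0048g02490 in the last.

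**Figure D4:**
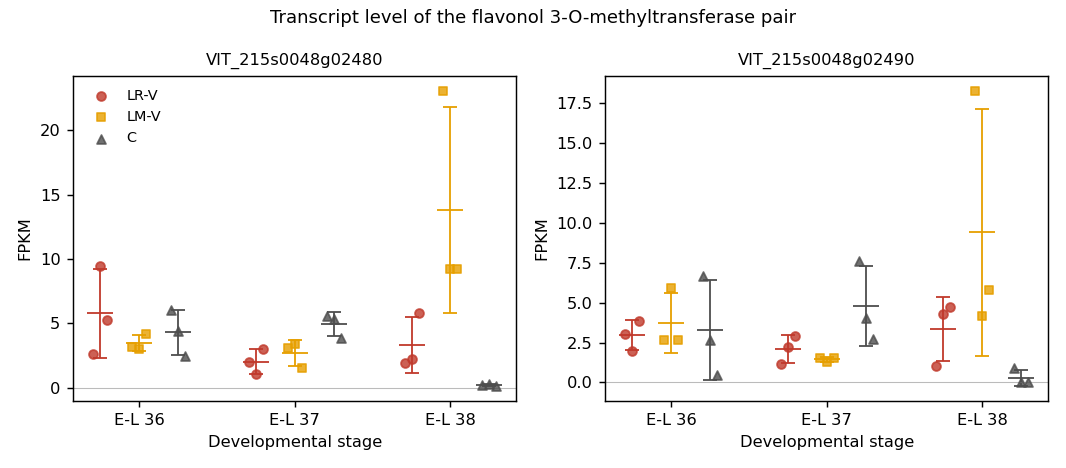
FPKM of VIT_215s0048g02480 (left) and VIT_215s0048g02490 (right) in each library by stage. Points are libraries of LR-V (circles), LM-V (squares) and C (triangles), with the mean and SD of 3 libraries. At E-L 38 both genes are highest in LM-V and lowest in C, and LM-V replicate A stands above the others at 23.07 and 18.29 FPKM.

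At the earlier stages the pair showed no called difference between treatments. At E-L 36 VIT_215s0048g02480 had 2.64, 9.49 and 5.25 FPKM in LR-V, 3.16, 3.01 and 4.19 FPKM in LM-V and 6.01, 4.41 and 2.46 FPKM in C, and at E-L 37 it had 2.01, 1.06 and 2.98 FPKM in LR-V and 3.08, 3.40 and 1.53 FPKM in LM-V, against 5.60, 5.37 and 3.89 FPKM in C. VIT_215s0048g02490 had 3.05, 1.99 and 3.88 FPKM in LR-V, 2.64, 5.90 and 2.68 FPKM in LM-V and 6.69, 2.67 and 0.49 FPKM in C at E-L 36, and 1.17, 2.2 and 2.89 FPKM in LR-V, 1.51, 1.27 and 1.53 FPKM in LM-V and 7.61, 4.03 and 2.75 FPKM in C at E-L 37. At E-L 37 the exposed libraries of VIT_215s0048g02480 lay below all C libraries, with log2 differences from C of -1.02 ± 0.39 for LR-V (adjusted p = 0.13) and -0.73 ± 0.39 for LM-V (adjusted p = 0.461). In C berries both genes fell at E-L 38 against E-L 37, by 2.29 ± 0.39 (adjusted p = 0.00013) and 2.14 ± 0.53 (adjusted p = 0.004). In LM-V berries both rose, by 1.93 ± 0.39 (adjusted p = 0.00042) and 1.85 ± 0.53 (adjusted p = 0.0083), the second lost without LM-V replicate A at E-L 38 (adjusted p = 0.073). In LR-V berries the changes were 0.46 ± 0.39 (adjusted p = 0.406) and 0.40 ± 0.53 (adjusted p = 0.614). At E-L 37 against E-L 36 the only called step of the pair was in LR-V, where VIT_215s0048g02480 fell by 1.09 ± 0.39 (adjusted p = 0.034). That call was lost without LR-V replicate B or C of E-L 36 or LR-V replicate A or B of E-L 37 (adjusted p up to 0.207). It was also lost in a fit of the compared groups alone and under the fold and probability rule (probability 0.7685).

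The LM-V effect on VIT_215s0048g02480 was higher at E-L 38 than at E-L 36 by 3.70 ± 0.55 (adjusted p = 0.00035), and at E-L 37 it was below the mean of the other stages by 2.38 ± 0.47 (log2 difference -2.38, adjusted p = 0.021), the second lost without C replicate A, C replicate B, LM-V replicate B or LM-V replicate C of E-L 37 (adjusted p up to 0.072). For VIT_215s0048g02490 the E-L 37 contrast of LM-V was -2.77 ± 0.65 (adjusted p = 0.0508) and that of E-L 38 with E-L 36 was 2.45 ± 0.75 (adjusted p = 0.083). With both copies summed these LM-V contrasts were -3.03 ± 0.55 (adjusted p = 0.011) and 3.79 ± 0.63 (adjusted p = 0.0012). For LR-V and VIT_215s0048g02480 the E-L 37 contrast was -2.03 ± 0.47 (adjusted p = 0.015), lost without C replicate B of E-L 37 (adjusted p = 0.052), and the contrast of E-L 38 with E-L 36 was 1.44 ± 0.55 (adjusted p = 0.11). VIT_215s0048g02490 gave -1.79 ± 0.65 (adjusted p = 0.115) and 1.52 ± 0.75 (adjusted p = 0.236) in these LR-V contrasts. The sum of both copies gave -2.37 ± 0.55 (adjusted p = 0.0145) and 1.96 ± 0.63 (adjusted p = 0.058).

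**Figure D5:**
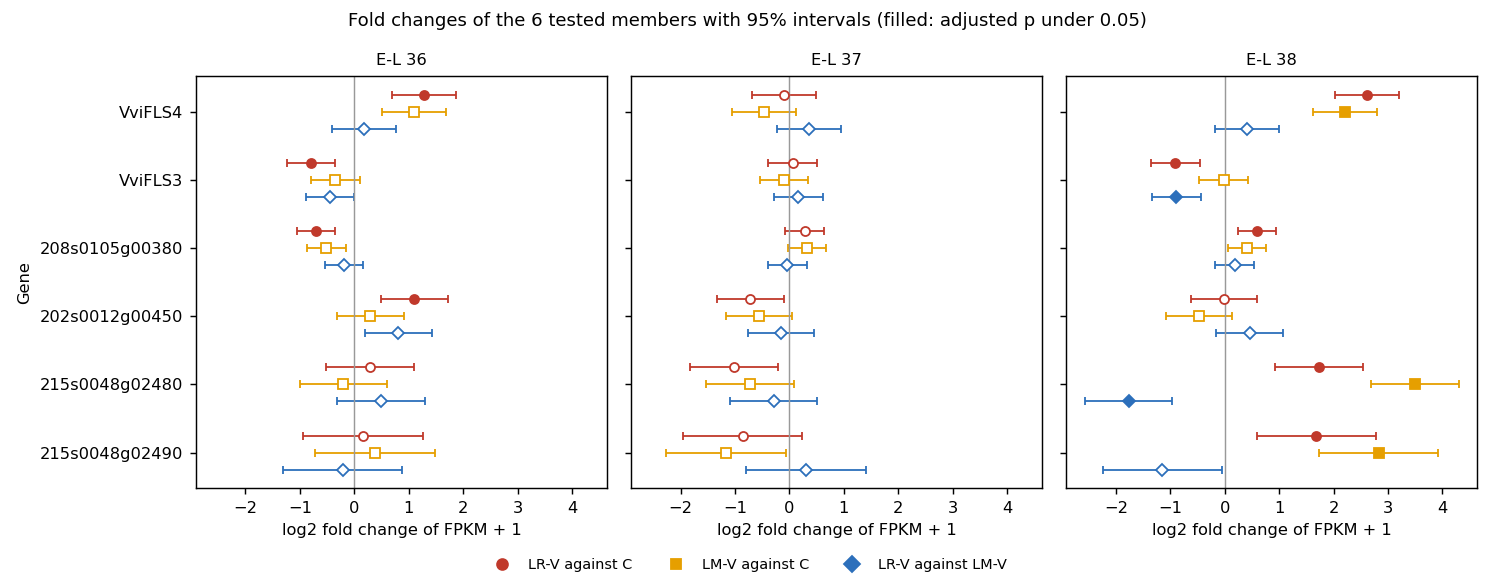
Log2 fold changes of FPKM + 1 for the 6 tested members at E-L 36, 37 and 38, for LR-V against C (circles), LM-V against C (squares) and LR-V against LM-V (diamonds), with 95% intervals from limma. Filled symbols have an adjusted p under 0.05. At E-L 37 no symbol is filled, while at E-L 38 VviFLS4 and both methyltransferases are filled for both treatments against C.

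Counted over the 6 tested members, LR-V against C gave 2 higher and 2 lower at E-L 36, 0 called at E-L 37, and 4 higher and 1 lower at E-L 38, where 5.54%, 5.01% and 17.8% of all genes were called. LM-V against C gave 0 called at E-L 36 and E-L 37 and 3 higher at E-L 38, where 0.0708%, 0.572% and 9.5% of all genes were called. LR-V against LM-V gave 0 called at E-L 36 and E-L 37 and 2 lower at E-L 38, where 0.0354%, 0% and 7.45% of all genes were called. At E-L 37 that comparison had 1387 of 19761 genes at an unadjusted p under 0.05 and none of the members among them, and no member was picked there by the study's rule of at least 2-fold with a NOISeq-type probability of at least 0.8, as rebuilt here. Median log2 differences over the members, beside those over all tested genes, were 0.23 and 0.02 (E-L 36), -0.41 and -0.09 (E-L 37) and 1.14 and 0.02 (E-L 38) for LR-V against C. For LM-V against C they were 0.05 and -0.01, -0.51 and -0.08, and 1.31 and -0.02. Between stages, the members called were 3 of 6 in LR-V, 3 in LM-V and 4 in C at E-L 37 against E-L 36, where 32.4%, 27.6% and 37.5% of all genes were called. At E-L 38 against E-L 37 they were 2, 5 and 4 of 6, where 31.2%, 38.7% and 28.5% of all genes were called. Scaling by median of ratios moved the median of all genes by over 0.1 in the E-L 37 against E-L 36 comparisons of C (0.20 as deposited) and LM-V (0.13) and in the LR-V contrast of E-L 37 with the other stages (-0.11), and no direction of a call of a member changed with it.

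Of the other genes of the pathway by first-listed KEGG orthology, most that were called were lower in LR-V than in C. At E-L 36 these were 2 of 11 genes of flavonoid 3′,5′-hydroxylase (F3′5′H, which adds the hydroxyls of myricetin type compounds), while 1 of 5 DFR genes was higher, with 5.54% of all genes called. At E-L 37, with 5.01% of all genes called, the lists of the steps before FLS gave these counts for LR-V against C. For chalcone synthase (CHS, the first enzyme of the flavonoid pathway) 2 of 4 tested genes fell, for chalcone isomerase (CHI) 2 of 2, for flavanone 3-hydroxylase (F3H, which makes dihydroflavonols) 1 of 2 and for F3′5′H 8 of 11, with none higher. Of the 6 tested genes of flavonoid 3′-hydroxylase (F3′H, which gives quercetin type compounds) 0 were called at that stage. In F3′5′H the LR-V and C levels were 22.3 ± 1.99 and 55.5 ± 4.79 FPKM for VIT_206s0009g02840 (log2 difference -1.27 ± 0.19, adjusted p = 0.00049) and 30.1 ± 7.65 and 68.1 ± 11.02 FPKM for VIT_206s0009g02970 (-1.17 ± 0.18, adjusted p = 0.0005). The 8 F3′5′H genes carry neighbouring identifiers, and reads may be split among close copies. The summed skin markers UFGT and VviMYBA1 at E-L 37 were at 56.61 to 64.99 FPKM in LR-V, against 77.98 to 109.2 FPKM in C. UFGT alone was at 43.1 to 52.68 FPKM in LR-V and 65.59 to 86.91 FPKM in C. VviMYBA1 overlapped, at 11.37 to 13.51 FPKM in LR-V and 12.39 to 22.34 FPKM in C. The summed seed transcripts were at 0.37 to 63.14 FPKM in LR-V, against 0 to 4.88 FPKM in C. The part of these markers in the differences was not tested. At the same stage CHS fell by 1.00 ± 0.17 (VIT_205s0136g00260) and 0.97 ± 0.16 (VIT_214s0068g00920; adjusted p = 0.0015 for each), and CHI fell by 1.01 ± 0.22 (VIT_213s0067g03820, adjusted p = 0.011) and 0.77 ± 0.17 (VIT_213s0067g02870, adjusted p = 0.012).

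At E-L 38, where VviFLS4 rose most, F3H VIT_204s0023g03370 fell by 1.31 ± 0.21 in LR-V against C (58.3 ± 11.8 and 144 ± 17.1 FPKM, adjusted p = 0.00016), while the other tested F3H, VIT_218s0001g14310, gave 0.26 ± 0.14 (adjusted p = 0.219). Of CHS 2 of 4 genes and of F3′5′H 3 of 11 fell at this stage, with 17.8% of all genes called. The summed skin markers were at 33.96 to 40.6 FPKM in LR-V and 59.47 to 71.94 FPKM in C. UFGT alone was at 28.08 to 32.29 FPKM in LR-V and 56.16 to 64.71 FPKM in C. VviMYBA1 did not share this fall, at 5.68 to 8.31 FPKM in LR-V and 3.31 to 7.23 FPKM in C. The part of these markers was not tested. Both F3′H genes called of 6 tested fell, VIT_217s0000g07200 by 0.64 ± 0.14 (adjusted p = 0.0024) and VIT_217s0000g07210 by 0.77 ± 0.23 (adjusted p = 0.025). Of 5 tested DFR genes, which draw on the same dihydroflavonols, 1 rose, VIT_215s0048g01000, by 1.16 ± 0.18 (adjusted p = 0.00011), and 1 fell, VIT_218s0001g12800, by 0.87 ± 0.15 (56.7 ± 6.47 and 104 ± 15.3 FPKM, adjusted p = 0.00034). For LM-V against C the calls in these lists were all at E-L 38 and all lower: 2 of 4 CHS, 1 of 2 F3H, 1 of 11 F3′5′H and 2 of 5 DFR genes, with 9.5% of all genes called. Within the FLS list, 14 of 25 genes were tested, 10 of them no members. Of those 10, a gene whose closest protein is a BTB/POZ protein, VIT_213s0067g01020, was higher in LR-V than in C by 1.33 ± 0.33 at E-L 36 (adjusted p = 0.019). In ripe berries (E-L 38) VIT_203s0017g02350 fell by 0.35 ± 0.11 in LR-V against C (adjusted p = 0.031) and VIT_209s0002g08090, named after its value was seen, rose by 0.57 ± 0.19 (adjusted p = 0.039). None of them was called for LM-V against C. Of the 13 genes listed as flavonol 3-O-methyltransferase, 6 were tested, and of the 4 that are no members none was called against C. The nearest to the threshold were VIT_216s0098g00850, whose closest protein is caffeic acid O-methyltransferase, at 0.49 ± 0.17 in LR-V at E-L 38 (adjusted p = 0.053), and VIT_218s0001g02610, with a like closest protein, at -0.50 ± 0.18 for LM-V against C at the same stage (adjusted p = 0.088). The second gene was higher in LR-V than in LM-V at E-L 38, by 0.73 ± 0.18 (adjusted p = 0.017).

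The genes whose levels followed VviFLS4 most closely over the 27 libraries, by Pearson's r of log2(FPKM + 1) among 19760 genes, were VIT_203s0091g00230 (r = 0.90), VIT_200s0429g00040 (0.89), VIT_206s0004g06640, a pyridoxine biosynthesis protein by orthology (0.86), and VIT_211s0052g01630 and VIT_211s0052g01600, both anthocyanidin 3-O-glucosyltransferases by orthology (0.84 each). The glucosyltransferase label comes from orthology and does not settle the substrate of either gene, which may be other than an anthocyanidin. Of the other tested members the nearest to VviFLS4 was VIT_215s0048g02490, with r = 0.49 and rank 1081, and VviFLS3 had r = 0.09. Those most like VviMYBF1 were VIT_217s0000g02520 (0.84), VIT_201s0026g01340, a glutathione S-transferase by orthology (0.81), VIT_207s0205g00140, a kinesin by orthology (0.81), and VIT_218s0157g00200 and VIT_200s0434g00080 (0.80 each), while VviFLS4 ranked 3789. These are descriptions over libraries that share stage and treatment, and no p is given.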

How the data were processed

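Berry RNA of 27 libraries was sequenced as 50-base reads, which the authors aligned to grapevine genome V2 with at most 2 mismatches (Bowtie2 2.2.5 in the submitters' processing notes). The authors deposited FPKM per gene and library, the expression measure their methods name, and the depth in reads is unknown. log2(FPKM + 1) of the 19761 genes that reached FPKM 1 in 3 or more libraries was fitted with limma 3.58.1 (statmod 1.5.0, R 4.3.3; trended, robust variance moderation), 1 mean per group over all libraries, with Benjamini-Hochberg adjustment within each of 19 comparisons. The fit was tested on simulated data. Members under the filter were compared by exact permutation within stages. Alternatives were a pseudocount of 0.1, no filter on low values, median-of-ratios scaling, only the compared groups, a block on the replicate letter, a seed covariate, summed methyltransferase copies, the study's fold and probability rule as rebuilt here, and each library left out; the exact tests and the summed copies were chosen after seeing the data. The members, lists and tests were chosen with earlier results of these data known. All 10 members are named, with the 5 genes most like VviFLS4 and VviMYBF1 and 2 non-members per orthology list with the smallest adjusted p against C. Each replicate pools berries of 15 vines per the labels. The paper applied a treatment to 15 vines in each replicate, so the stages of a treatment were probably sampled from the same vines. The fit does not model this, so comparisons and interactions between stages may not be of independent vines. Promoter motifs were not analysed here.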

Additional observations from a re-analysis of the deposited data

Results flagged for a closer look

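A difference in the effect of a treatment between stages, tested as an interaction in the limma fit, was called for 10 combinations of gene and contrast. Only the 6 tested members could give such a call. The LR-V effect at E-L 37 differed from its average at the other stages for VviFLS4 VIT_218s0001g03470 (log2 difference -2.04), VIT_215s0048g02480 (-2.03), VIT_202s0012g00450 (-1.26) and VviFLS3 VIT_218s0001g03430 (0.91). Here 4 of 6 members were called, beside 4.88% of all genes. The calls of VIT_202s0012g00450 and VviFLS3 were lost without any one of 12 and 13 of 18 libraries, and that of VIT_215s0048g02480 without 1. The LM-V effect differed in the same contrast for VIT_218s0001g03470 (-2.11) and VIT_215s0048g02480 (-2.38), which are 2 of 6 members, beside 0.633% of all genes. The second call was lost without any one of 4 of 18 libraries. Between E-L 38 and E-L 36 the LR-V effect differed for VIT_218s0001g03470 (1.34) and VIT_208s0105g00380 (1.30), and the LM-V effect for VIT_215s0048g02480 (3.70) and VIT_208s0105g00380 (0.93). These are 2 of 6 members for each treatment, beside 8.35% of all genes for LR-V and 3.1% for LM-V. Of 12 libraries, leaving out any one of 9 ended the LR-V call of VIT_218s0001g03470. Any one of 8 ended the LM-V call of VIT_208s0105g00380. For VviFLS4 the E-L 37 contrast goes with a C level at that stage of 4.06 to 8.05 FPKM, against 1.12 to 2.46 FPKM in C at the other stages. Groups of 3 libraries were too small to be searched for single libraries far from the others.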

How the results depend on the processing

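No direction of a called result turned under any alternative. Counts of members called below are out of the 6 tested, except those with no filter, which are out of all 10 members. The shares of all genes called that are given above belong to the main fit. They do not apply to the counts under alternatives or with a library left out. Whether a lower count is particular to the members was therefore not tested. In a fit of only the compared groups, LR-V against C gave 2 in place of 4 at E-L 36 and 3 in place of 5 at E-L 38, LR-V against LM-V at E-L 38 gave 0 in place of 2, the LR-V contrast of E-L 37 with the other stages gave 2 in place of 4, and the LM-V contrast of E-L 38 with E-L 36 gave 1 in place of 2; these fits hold fewer samples. With the seed covariate LR-V against C at E-L 36 gave 2. The fold and probability rule gave 1 for LR-V against C at E-L 36 and 1 at E-L 38, and 1 each for E-L 37 against E-L 36 (both LR-V and LM-V) and for E-L 38 against E-L 37 of LR-V. For the LR-V contrast of E-L 37, a pseudocount of 0.1 gave 2, no filter gave 2 and the replicate block gave 2; for the LR-V contrast of E-L 38 with E-L 36, no filter gave 1 and the replicate block 1, and no filter gave 1 for that of LM-V. The cause was not tested for the other shifts.

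With 1 library left out, the counts ranged from 1 to 4 for LR-V against C at E-L 36, 2 to 5 for LR-V against C at E-L 38, 0 to 2 for LR-V against LM-V at E-L 38, 1 to 3 for E-L 37 against E-L 36 in LR-V, 3 to 5 for E-L 38 against E-L 37 in LM-V, 1 to 4 and 1 to 3 for the E-L 37 contrasts of LR-V and LM-V, and 1 to 2 for both E-L 38 contrasts with E-L 36. Same-letter libraries, paired within and between treatments, had deviations from their group means with a mean r of -0.02 (108 pairs, from -0.464 to 0.328). For other pairs the mean r was 0.01 (from -0.434 to 0.492). These means cannot show whether a letter marks shared vines. A block on the replicate letter ended 3 of 45 gene calls. It joins libraries of the same letter from different treatments, which are different vines. Vines shared by the stages of a single treatment are thus not modelled by it. VviMYBF1 in LM-V against C was at p = 0.0693 with a pseudocount of 0.1 (exact permutation). Depth in reads is unknown, so for the 4 members under the filter no floor can be given.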
